A study of Homo sapiens with 6 samples.

Results

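The integrin and laminin chains were read out in BT-549 cells, a triple-negative breast cancer (TNBC) line, after silencing of the long noncoding RNA NEAT1. The 38 genes were all those in the expression table, out of 25545, whose symbols name an integrin α subunit (18 genes), an integrin β subunit (8 genes) or a laminin α, β or γ chain (12 genes). The rule used gene symbols alone. The cells, labelled BT-549/tet-NEAT1CsiRNA and BT-549/tet-NEAT1siRNA, were transfected with a control siRNA (CsiRNA) or with 1 NEAT1 siRNA (NEAT1siRNA), both with Lipofectamine, and were lysed 48 h later. Both groups had otherwise the same culture, in RPMI1640 with fetal bovine serum and insulin, and there were 3 cultures in each. No second NEAT1 siRNA and no rescue was among the 6 libraries, and all of them came from a single line. The p-values refer to the spread between these parallel cultures. In the limma fits the spread of each gene was combined with that of the other tested genes.

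Integrins are receptors built from an α and a β subunit that span the cell membrane. They bind matrix proteins outside the cell and, through talin, vinculin and other adaptors, the actin skeleton inside it. Laminins are trimers of an α, a β and a γ chain that form the sheet of the basement membrane, and several integrins of the ITGB1 group are their receptors. In breast epithelium this contact anchors cells to the basement membrane, and carcinoma cells use the same receptors to adhere and migrate.

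Values are TPM, the share of a library's transcripts that a gene takes after division by its length, so that levels can be compared between genes. Reads recovered from the deposited values came to between 17245260 and 20342380 per CsiRNA library and between 15788347 and 20181138 per NEAT1siRNA library. NEAT1 itself was 13.4, 7.68 and 10.8 TPM in the CsiRNA libraries and 4.36, 2.96 and 2.73 TPM in the NEAT1siRNA libraries, so that every NEAT1siRNA library was below every CsiRNA library (log2 fold change -1.41, SE 0.14, limma adjusted p = 1.21e-07). Marker genes were read to check the cell type. Of the 3 receptors whose absence defines TNBC, ESR1 was at 0 in all 6 libraries and PGR did not exceed 0.00676 TPM, while ERBB2, which is judged by amplification and protein, was at 6.19 ± 0.212 TPM in CsiRNA and 5.98 ± 0.328 TPM in NEAT1siRNA cells. Of the mesenchymal markers, 5 of 5 were at or above 1 TPM, with summed levels of 1490 to 1684 TPM in CsiRNA and 1364 to 1585 TPM in NEAT1siRNA libraries. Of 7 epithelial markers, 1 (KRT18) reached 1 TPM, and the list summed to 1.34 to 1.88 TPM in CsiRNA and to 1.93 to 2.78 TPM in NEAT1siRNA libraries, and its part in the results was not tested. None of 6 leukocyte, 5 platelet or 4 endothelial markers reached 1 TPM.

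After silencing of NEAT1, the chains of the classical fibronectin receptor, a laminin receptor chain and the principal laminin β and γ chains were lower. Of the 38 genes, 14 had a mean of at least 1 TPM and were tested together with all other such genes, 10721 in all. Among these 14, ITGA5, ITGB1, ITGA3, LAMB1, LAMB2 and LAMC1 fell (limma, Benjamini-Hochberg adjusted p under 0.05), to between 73.4% and 82.6% of their CsiRNA means. The background in the same fit was 8.98% of all tested genes lower and 4.99% higher. None of the 14 rose, and none was higher at an unadjusted p under 0.05. The median log2 fold change of the 14 was -0.20, against -0.044 over all genes tested, and 12 of the 14 values were negative. In bulk RNA, fewer cells with a transcript and less of it per cell cannot be told apart.

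**Figure D1:**
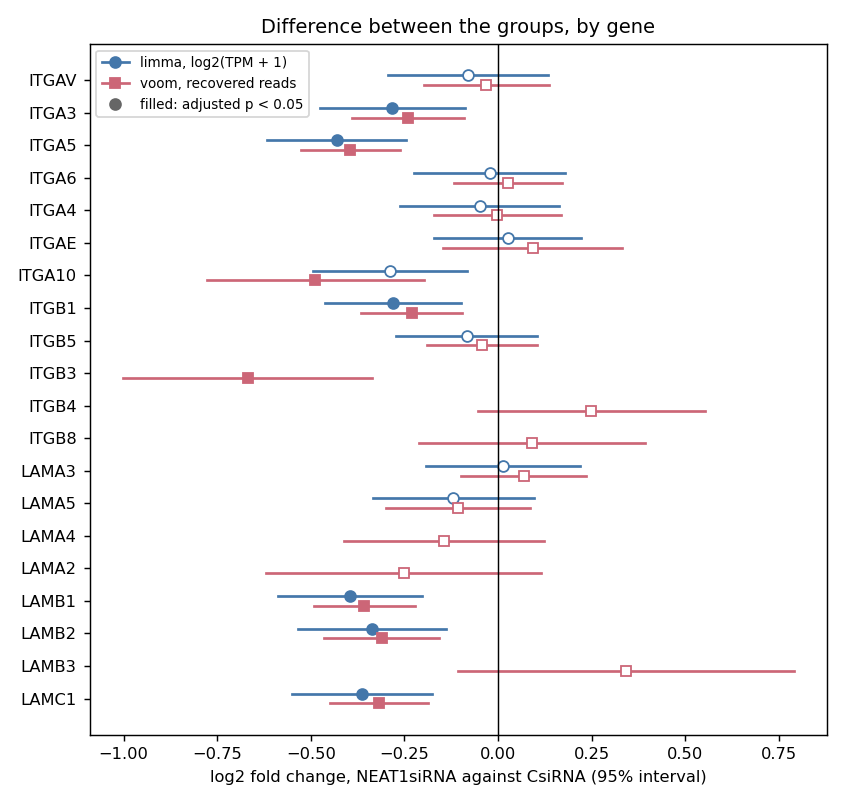
Log2 fold change (NEAT1siRNA against CsiRNA) with 95% intervals for the integrin and laminin genes described here that had enough reads, from limma on log2(TPM + 1) (circles, the 14 genes at a mean of at least 1 TPM) and from voom on recovered reads (squares, all genes drawn), filled where the adjusted p is under 0.05. The 6 filled circles lie between -0.43 and -0.28, and of the 8 filled squares ITGB3 lies farthest from 0, at -0.67.

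ITGA5, whose product pairs with ITGB1 as the classical fibronectin receptor, showed the largest change of the 6. It was 36.3, 33.5 and 32.4 TPM in the CsiRNA libraries and 25.7, 25.3 and 24.0 TPM in the NEAT1siRNA libraries. The groups did not overlap, and the gap between them was larger than the spread within either. Its mean was 34.1 ± 1.99 TPM in CsiRNA and 25.0 ± 0.895 TPM in NEAT1siRNA cells (SD over the 3 libraries of each group), a log2 difference of -0.43 (SE 0.09, 95% interval -0.62 to -0.24, limma adjusted p = 0.00193). It stayed past the threshold in all 17 other fits, at log2 fold changes of -0.46 to -0.36. The gene lies at chr12:54395261-54419266 on the minus strand (GRCh38).

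ITGB1, the β subunit shared by most matrix-binding integrins, was the most abundant of the 38 transcripts. Its level was 413, 393 and 371 TPM in the CsiRNA libraries and 306, 366 and 299 TPM in the NEAT1siRNA libraries. The highest NEAT1siRNA library, replicate 2, lay just below the lowest CsiRNA library, replicate 3. The mean fell from 392 ± 20.8 to 324 ± 36.9 TPM (log2 fold change -0.28, SE 0.09, limma adjusted p = 0.0351). This call was lost in 6 of 17 other fits, 4 of which left out a single library: CsiRNA replicate 1 (adjusted p = 0.188) or 2 (0.0895), or NEAT1siRNA replicate 1 (0.0994) or 3 (0.199).

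ITGA3, the α subunit of a laminin receptor, was 44.7, 40.1 and 41.8 TPM in CsiRNA and 38.2, 34.1 and 31.5 TPM in NEAT1siRNA libraries. Here too the groups did not overlap (log2 fold change -0.28, SE 0.09, limma adjusted p = 0.0446). The call was lost in 7 of 17 other fits, among them those without CsiRNA replicate 1 (adjusted p = 0.204), 2 (0.0700) or 3 (0.0564) or without NEAT1siRNA replicate 3 (0.242). ITGB1 lies at chr10:32887273-33005792 on the minus strand and ITGA3 at chr17:50055968-50090481 on the plus strand.

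The other α subunits at similar levels did not pass the test. ITGAV, the subunit that pairs with several β chains to bind RGD-containing proteins such as vitronectin, was 46.5, 43.1 and 38.8 TPM in CsiRNA and 35.9, 47.9 and 38.2 TPM in NEAT1siRNA libraries. Its log2 fold change was -0.08 (95% interval -0.29 to 0.13, limma adjusted p = 0.673). ITGA6, the second laminin-receptor α chain of these cells, was 26.2, 25.5 and 22.6 TPM against 24.0, 27.2 and 22.0 TPM, with a log2 fold change of -0.02 (95% interval -0.22 to 0.18, limma adjusted p = 0.917). ITGA4, which binds fibronectin and VCAM1, was 13.6, 12.9 and 11.5 TPM against 10.8, 14.3 and 11.7 TPM (log2 fold change -0.05, 95% interval -0.26 to 0.16). ITGA4 shares 2813 exon bases with CERKL on the opposite strand and, as the strand setting of the counting is not known, its level is uncertain. The same limit holds, over fewer bases, for ITGAE (427 shared with HASPIN), LAMB1 (300 with DLD) and LAMA5 (244 with ADRM1). Noncoding genes of the opposite strand, not named in the expression table, also shared exon bases with tested genes. Outside those genes, these were 401 in ITGB1, 203 in ITGAV, 174, 125 and 52 in ITGA6, 122 in ITGA10 and 48 in ITGA5. In ITGAV, ITGA6 and ITGA4 the groups overlapped, and NEAT1siRNA replicate 2 was the highest of the 6 libraries. Without that library the log2 fold changes were -0.20 for ITGAV, -0.16 for ITGA4 and -0.10 for ITGA6, and the adjusted p-values (limma) were 0.115, 0.284 and 0.497.

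Transcript GC content moved with this library difference. ITGAV (38.3% GC), ITGA4 (39.0%), ITGB1 (39.5%) and ITGA6 (42.5%) have the lowest GC of the 14, and in these 4 and in ITGB5 replicate 2 was the highest NEAT1siRNA library, while in the other 9 it was replicate 1. Over 10106 genes, the deviation of NEAT1siRNA replicate 2 from its group mean went down with GC (Spearman rho -0.733) and that of replicate 1 went up (rho 0.683). With the GC and length trend removed from each library, the 6 calls kept their threshold, at log2 fold changes of -0.36 for ITGA5, -0.31 for LAMB1, -0.28 for LAMB2, -0.27 for ITGB1, -0.26 for LAMC1 and -0.23 for ITGA3. In that fit 1747 of all 10106 genes were lower and 1678 higher, where the main fit had 963 lower and 535 higher of 10721. It also called LAMA3 higher, at 0.16 (limma adjusted p just under 0.05).

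**Figure D2:**
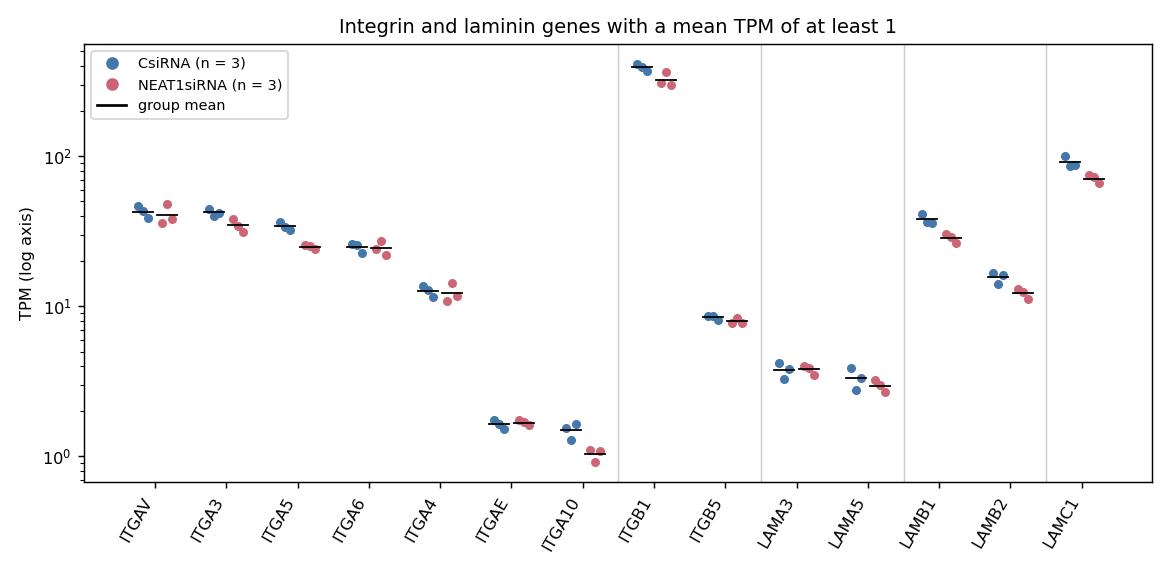
TPM (log axis) of the 14 integrin and laminin genes with a mean of at least 1 TPM, 1 point for each CsiRNA (blue) and NEAT1siRNA (red) library in replicate order and a line at each group mean. In 7 genes (the 6 that fell and ITGA10) every NEAT1siRNA point lies below every CsiRNA point.

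The remaining integrins above 1 TPM were low or nearly level. ITGA10, a collagen-binding α subunit, was 1.55, 1.28 and 1.64 TPM in CsiRNA and 1.11, 0.917 and 1.09 TPM in NEAT1siRNA libraries. The groups did not overlap, with a mean at 69.7% of CsiRNA, but the test was not passed (log2 fold change -0.29, SE 0.10, limma adjusted p = 0.0553). On recovered reads, 167, 139 and 217 against 128, 112 and 118, it was past the threshold by voom, a limma fit for counts (log2 fold change -0.49, SE 0.14, adjusted p = 0.0178). ITGB5, a vitronectin-receptor β chain that pairs with ITGAV, was 8.61, 8.66 and 8.16 TPM against 7.75, 8.40 and 7.69 TPM (log2 fold change -0.08, 95% interval -0.27 to 0.11). ITGAE, the partner of ITGB7 on lymphocytes, was 1.74, 1.65 and 1.51 TPM against 1.74, 1.70 and 1.61 TPM, with a log2 fold change of 0.03 (95% interval -0.17 to 0.22). ITGB7 was among the genes under 10 reads on average. Together, 7 of 14 genes had all NEAT1siRNA libraries below all CsiRNA libraries and 0 had all above, where 19.3% and 11% of all tested genes did.

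Among the laminins, the γ chain and both tested β chains fell, and neither tested α chain passed the test. LAMC1, the γ chain of most laminins and the most abundant laminin transcript here, was 100.3, 86.5 and 88.1 TPM in CsiRNA and 74.7, 72.3 and 65.9 TPM in NEAT1siRNA libraries. All NEAT1siRNA values lay below all CsiRNA values (91.6 ± 7.57 to 71.0 ± 4.55 TPM, log2 fold change -0.36, SE 0.09, limma adjusted p = 0.00804). LAMC1 lies at chr1:183023420-183145592 on the plus strand. LAMB1, the most abundant laminin β chain, was 41.5, 36.6 and 36.1 TPM against 30.3, 29.2 and 26.6 TPM, again without overlap (log2 fold change -0.40, SE 0.09, limma adjusted p = 0.00499). LAMB2, the other β chain that assembles with LAMC1, was 16.7, 14.2 and 16.3 TPM against 13.0, 12.4 and 11.3 TPM (log2 fold change -0.34, SE 0.10, limma adjusted p = 0.0200). LAMB1 lies at chr7:107923799-108003213 and LAMB2 at chr3:49121114-49133118, both on the minus strand. CsiRNA replicate 1 was the highest CsiRNA library for all 3 chains, and without it their adjusted p-values (limma) were 0.0886 for LAMC1, 0.0556 for LAMB1 and 0.111 for LAMB2. Without NEAT1siRNA replicate 3 the LAMC1 value was 0.0712 and that of LAMB2 was 0.121, and without CsiRNA replicate 3 that of LAMB2 was 0.0555.

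The laminin α chains carry the domains that integrins bind. LAMA5 was 3.89, 2.76 and 3.33 TPM in CsiRNA and 3.21, 3.01 and 2.68 TPM in NEAT1siRNA libraries, with overlapping groups (log2 fold change -0.12, 95% interval -0.34 to 0.10, limma adjusted p = 0.501). LAMA3 was 4.22, 3.26 and 3.84 TPM against 4.02, 3.91 and 3.51 TPM, also overlapping (log2 fold change 0.01, 95% interval -0.19 to 0.22, limma adjusted p = 0.948). The α transcripts were far less abundant per length than LAMC1: their summed level, 8.32 ± 1.19 TPM in CsiRNA cells, compared with 92.0 ± 7.57 TPM for the γ chains and 54.1 ± 3.85 TPM for the β chains.

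Summed by class, the β and γ laminin chains were at 76.4% and 77.5% of CsiRNA in the NEAT1siRNA cells, the integrin β chains at 82.8%, the integrin α chains at 87.5% and the laminin α chains at 94.0%. The summed laminin β level was 58.5, 51.1 and 52.8 TPM against 43.7, 42.1 and 38.3 TPM, and the summed integrin β level was 423, 404 and 381 TPM against 315, 377 and 309 TPM. In both classes the groups did not overlap. The integrin α sum, 170.9, 158.2 and 150.5 TPM against 137.6, 151.6 and 130.2 TPM, did overlap, since NEAT1siRNA replicate 2 was above CsiRNA replicate 3. With TPM rescaled without 4 short noncoding RNAs (RN7SK, RN7SL1, RN7SL2 and RPPH1) it did not overlap, at 161.9, 155.0 and 157.1 against 140.4, 145.8 and 137.7. Those 4 RNAs took between 64.4% (CsiRNA replicate 1) and 68.1% (NEAT1siRNA replicate 3) of a library's TPM, so their level moves every TPM value. The sums mostly carry single genes, as ITGB1 made up 97.4% of the integrin β transcripts and LAMC1 99.6% of the laminin γ transcripts in CsiRNA cells.

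**Figure D3:**
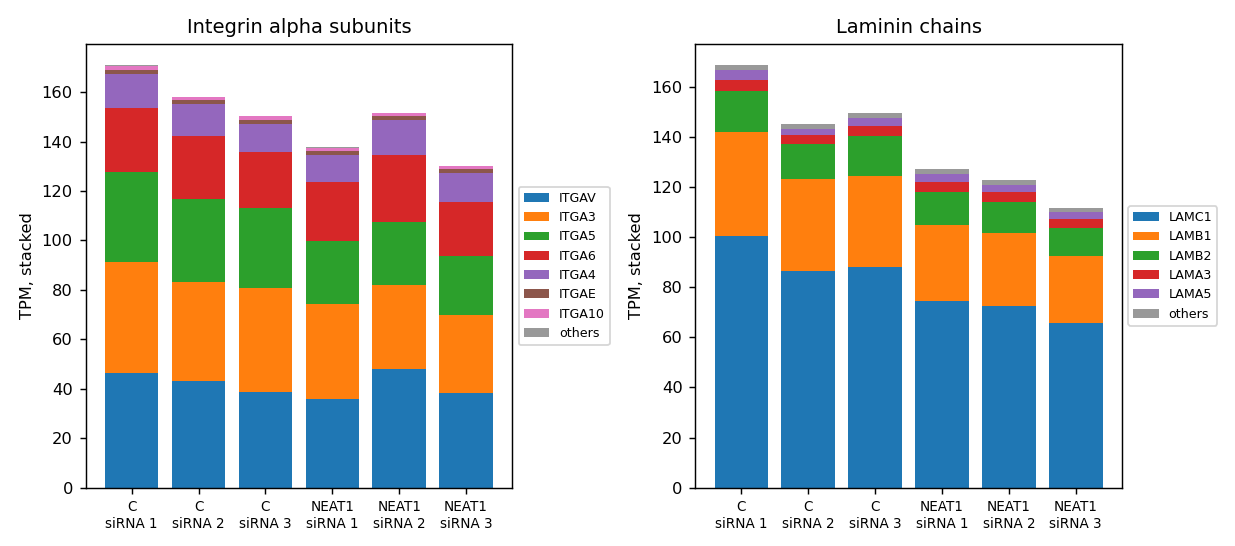
TPM of the integrin α subunits (left) and the laminin chains (right) stacked by gene in each library, on linear axes from 0, with genes that averaged under 1 TPM joined as others. ITGAV, ITGA3, ITGA5, ITGA6 and ITGA4 share most of the integrin α bars, while LAMC1 and LAMB1 fill most of the laminin bars.

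Relative to the other integrin α transcripts, ITGA5 was lower in every NEAT1siRNA library than in any CsiRNA library. It took 21.3% ± 0.197 of the integrin α TPM in CsiRNA cells and 17.9% ± 1.09 in NEAT1siRNA cells (SD, n = 3 each). The ITGAV share was 26.8% ± 0.841 and 29.0% ± 2.76, with overlapping groups, and that of ITGA6 was 15.5% ± 0.567 and 17.4% ± 0.543. The ITGA5 to ITGAV ratio was 0.780, 0.778 and 0.836 in CsiRNA and 0.717, 0.529 and 0.628 in NEAT1siRNA libraries. GC content differs between ITGA5 (58.05%) and ITGAV (38.29%), and its part in this ratio was not tested. The ITGA5 to ITGA6 ratio was 1.38, 1.32 and 1.44 against 1.07, 0.929 and 1.09, and the LAMC1 to LAMA3 ratio was 23.8, 26.5 and 22.9 against 18.6, 18.5 and 18.8. All 3 ratios were lower in every NEAT1siRNA library than in any CsiRNA library. So were the ratios of ITGB1 to ITGB5 (46.3 to 40.7 on average) and LAMC1 to LAMA5 (27.9 to 24.0). The 5 ratios were chosen after the values were seen. Each had an exact two-sided permutation p of 0.1, also after adjustment over the 5, which is the smallest that 3 against 3 libraries allow.

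Below 1 TPM, 7 genes had at least 10 reads on average and were compared by voom on the recovered reads, in a fit of 12716 genes where 10.8% were lower and 11% higher at an adjusted p under 0.05. In that fit 8 of 21 integrin and laminin genes were lower (the 6 above, ITGA10 and ITGB3) and 0 were higher. ITGB3, the β subunit of the platelet fibrinogen receptor and of a vitronectin receptor with ITGAV, had 84, 85 and 109 reads in CsiRNA and 63, 59 and 46 reads in NEAT1siRNA libraries. In TPM it was 0.846, 0.845 and 0.889 against 0.589, 0.522 and 0.460, with no overlap and a mean at 60.9% of CsiRNA (voom log2 fold change -0.67, SE 0.16, adjusted p = 0.00621). ITGB3 lies at chr17:47253827-47313743 on the plus strand and shares 2266 exon bases with an annotated read-through gene of the same strand, so its count is uncertain. The 5 platelet markers summed to 0.126 to 0.576 TPM in CsiRNA and 0.124 to 0.476 TPM in NEAT1siRNA libraries, with PPBP and GP9 at 0.

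The other 6 of these 7 did not pass, and 5 are described here. Reads of LAMB3, the β chain of the epithelial laminin that also holds LAMA3, were 28, 29 and 48 in CsiRNA and 43, 46 and 37 in NEAT1siRNA libraries (voom log2 fold change 0.34, adjusted p = 0.276). ITGB4, the partner of ITGA6 in hemidesmosomes, had 82, 63 and 88 against 87, 99 and 80 reads (voom log2 fold change 0.25, adjusted p = 0.239). In TPM the groups overlapped in both genes, though after division by size factors every NEAT1siRNA library was above every CsiRNA library for ITGB4. LAMA2 had 57, 64 and 68 against 56, 58 and 39 reads (adjusted p = 0.331) and no overlap in TPM, LAMA4 had 172, 125 and 178 against 151, 139 and 122 reads (0.448), and ITGB8 had 85, 72 and 91 against 86, 101 and 68 reads (0.694), all by voom.

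**Figure D4:**
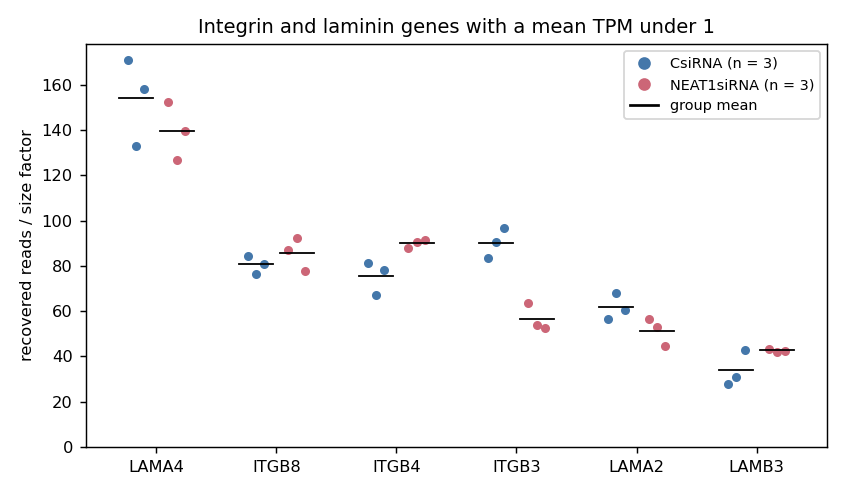
Recovered reads divided by the size factor of the library (linear axis from 0) for 6 of the 7 integrin and laminin genes with a mean under 1 TPM and at least 10 reads, 1 point for each library and a line at each group mean. The CsiRNA and NEAT1siRNA points of ITGB3 are apart, with NEAT1siRNA lower.

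The last 17 genes averaged under 10 reads and none exceeded 0.101 TPM in any library. They were ITGA1, ITGA2, ITGA2B, ITGA7, ITGA8, ITGA9, ITGA11, ITGAD, ITGAL, ITGAM, ITGAX, ITGB2, ITGB6, ITGB7, LAMA1, LAMB4 and LAMC3. The set holds the leukocyte chains ITGAL, ITGAM, ITGAX and ITGB2, the platelet chain ITGA2B and the collagen receptor chains ITGA1, ITGA2 and ITGA11. ITGAD was at 0 in all 6 libraries, where 0 of 109461566 reads allows up to 3, a limit that covers counting error only. Differences in these genes were not detectable at this depth.

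For 13 of the 14 tested genes (all but ITGA3) the RefSeq table of GRCh38.p14 gave the bases before a transcription start. The 250 bases before the start are shown for ITGA5 and LAMC1, the integrin α chain and the laminin chain of highest level among those that fell and had an entry, at chr12:54419267-54419516 (minus strand) and chr1:183023170-183023419 (plus strand). Capitals mark matches, on either strand, to the GC box GGGCGG, the TEAD hexamer GGAATG and the NF-κB consensus.
ITGA5: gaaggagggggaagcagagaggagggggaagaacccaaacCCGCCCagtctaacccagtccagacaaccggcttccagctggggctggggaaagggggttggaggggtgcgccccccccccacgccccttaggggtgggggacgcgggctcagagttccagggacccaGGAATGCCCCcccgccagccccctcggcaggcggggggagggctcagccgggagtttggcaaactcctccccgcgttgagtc
LAMC1: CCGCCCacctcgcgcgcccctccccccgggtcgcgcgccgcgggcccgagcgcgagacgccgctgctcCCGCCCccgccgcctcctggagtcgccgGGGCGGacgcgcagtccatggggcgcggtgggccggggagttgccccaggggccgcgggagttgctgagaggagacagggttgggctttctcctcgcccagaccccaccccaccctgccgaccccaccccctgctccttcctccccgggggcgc
LAMC1 holds 3 GC boxes, beginning 250, 182 and 154 bases before the start. ITGA5 holds 1, at 210 bases, and a TEAD match and an NF-κB match that overlap each other at 82 bases. Counting a gene where any of its listed starts had a match, a GC box was found in 5 of the 5 genes that fell and had an entry, in 4 of the other 8 tested genes, and in 46.2% of the 27305 genes in the table. TEAD matches were in 2 of 5, 1 of 8 and 14.3%, and NF-κB matches in 2 of 5, 1 of 8 and 11.8%. The E-box CACGTG was in 0 of 5, 1 of 8 and 7.73%, and the AP-1 site (TGACTCA or TGAGTCA) in 0 of 5, 1 of 8 and 5.19%. Single windows of this length, 35116 in all, held a GC box in 42.6%. The 27305 genes were not limited to genes at a mean of at least 1 TPM, as the 5 and the 8 were. These matches describe letters in these windows only.

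Inside the cell, integrins connect to actin through the adhesion complex, and 8 of its 34 tested genes (from a list of 43) fell and 0 rose in limma, where 8.98% of all tested genes were lower and 4.99% higher. Their median log2 fold change was -0.062. In that main limma fit none was higher at an unadjusted p under 0.05. With the GC and length trend removed, 11 were lower and 5 higher, where 1747 of all 10106 genes were lower and 1678 higher. Voom, which also took in genes of the list under 1 TPM, called 10 lower and 1 higher. The higher gene was the tensin TNS2, which was under the TPM filter and is named after its value was seen. Over all genes in the voom fit 10.8% were lower and 11% higher. The adhesion list was fixed with earlier results of these data known, so its counts are a description and not a test of the list. VCL (vinculin), which reinforces the talin to actin link, went from 53.0 ± 3.24 to 39.5 ± 2.66 TPM (log2 fold change -0.42, SE 0.09, limma adjusted p = 0.00290). ACTN1 (α-actinin), an actin cross-linker, went from 95.7 ± 4.63 to 71.9 ± 5.31 TPM (log2 fold change -0.41, limma adjusted p = 0.00278). FLNA (filamin A), which cross-links actin and binds β subunits, was 286, 236 and 257 TPM in CsiRNA and 223, 196 and 181 TPM in NEAT1siRNA libraries (log2 fold change -0.38, limma adjusted p = 0.00777). PTK2 (FAK) and SRC, kinases that signal at these sites and were named after their values were seen, had log2 fold changes of 0.03 and -0.01. Neither passed. PXN, TLN1, FERMT1 and ILK, named after their values were seen, were also lower, at -0.32 to -0.28.

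Of the ligands outside the cell and the partners of laminin, 7 of 23 tested genes (from a list of 34) fell and 1 rose, against the same 8.98% and 4.99%, with a median log2 fold change of -0.12. The split was 6 lower and 3 higher with the GC and length trend removed, where 1747 of all 10106 genes were lower and 1678 higher. By voom it was 8 lower and 2 higher, against 10.8% lower and 11% higher over all genes in that fit. The 2 higher include NPNT, which was under the TPM filter and is named after its values were seen. This list too was fixed with earlier results of these data known, so its counts are a description and not a test. The integrin ligands CYR61 (CCN1) and CTGF (CCN2) had the largest changes. CYR61 went from 245.9 ± 18.1 to 93.2 ± 6.68 TPM (log2 fold change -1.39, limma adjusted p = 9.53e-11) and CTGF from 174.9 ± 15.4 to 87.0 ± 6.98 TPM (log2 fold change -0.999, limma adjusted p = 3.46e-08). PLEC and DST, the plakins that link ITGB4 to keratin, had log2 fold changes of -0.60 and -0.59. FN1 (fibronectin), the ligand of ITGA5 with ITGB1 and named after its values were seen, was 93.8, 78.1 and 83.7 TPM in CsiRNA and 66.4, 60.6 and 56.3 TPM in NEAT1siRNA libraries. The groups did not overlap (log2 fold change -0.47, SE 0.09, limma adjusted p = 0.00116). THBS1 and ICAM1, also named after their values were seen, were the other 2 lower calls, with log2 fold changes of -0.59 and -0.55. SDC2, a syndecan that binds laminin and fibronectin, was the single gene of the 23 tested that rose in limma, from 1.32 ± 0.202 to 2.18 ± 0.483 TPM (log2 fold change 0.45, limma adjusted p = 0.00732).

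**Figure D5:**
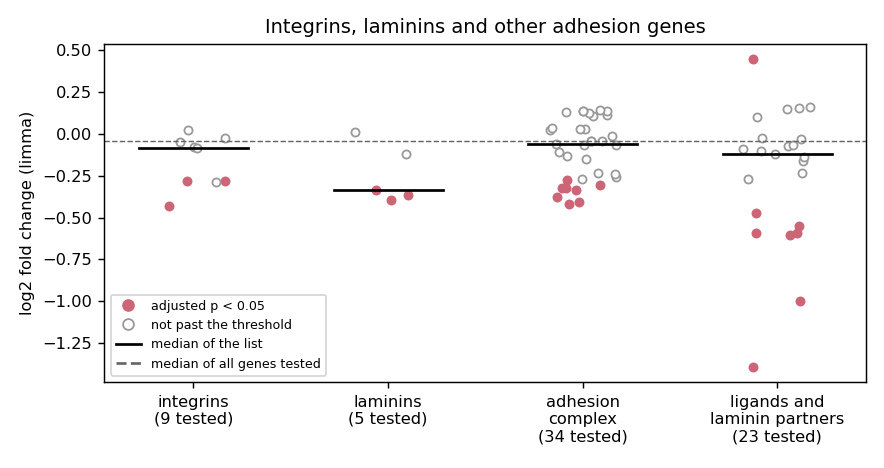
Log2 fold change (limma, NEAT1siRNA against CsiRNA) of each tested integrin, laminin, adhesion complex gene and ligand or laminin partner, red where the adjusted p is under 0.05, with a line at the median of each list and a dashed line at the median of all genes tested (-0.044). The ligands reach -1.39 (CYR61), while the integrins and laminins lie between -0.43 and 0.03.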

How the data were processed

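RNA from 3 CsiRNA and 3 NEAT1siRNA cultures was made into libraries with TruSeq Stranded mRNA. According to the labels, the authors used STAR, GRCh38 and DESeq2, but versions, the tool that made the TPM values and the strand setting of the counting are not given in the sources used here. The authors deposited TPM per gene and library, together with a mean normalized count over the 6 libraries (a signal that is never negative) and their own fold changes and p-values, which were not used.

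TPM was tested with limma 3.58.1 (R 4.3.3, trended moderated test) on log2(TPM + 1), over genes with a mean of at least 1 TPM, with Benjamini-Hochberg adjustment over all of them and a threshold of 0.05. Fold changes on this scale understate the change of low genes. A count test was planned only as an alternative, because the table holds TPM. Reads were recovered by combining TPM ratios with the deposited mean normalized count. The share that came out whole, with a tolerance of 0.05 reads, was taken over values of a gene in a library, with 0 counted as whole. It was 99.9% of the values of 5043 genes averaging under 5 reads and 98.6% of those of 2535 genes averaging 5 to 50. For 4553 genes averaging 50 to 500 it was 74.4% of the values, and for 6400 genes above that 15.9%. All values were rounded, so reads of the abundant genes are estimates. They were tested by voom over genes averaging at least 10 reads. GC content and length came from GENCODE v44 transcripts, which held all 38 genes. On data drawn with known changes, limma recovered 99.6% of genes changed by 1 on the log2 scale and 80.9% of those changed by 0.5. Of its calls there, 5.63% were false. These rates describe the drawn data only. The 6 integrin and laminin calls, at -0.43 to -0.28, were smaller than either size, and recovery at their size was not tested. The real libraries also deviated with GC content (Spearman rho from -0.733 to 0.683), so the rates may not carry over to them.

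The integrin and laminin genes, the gene lists and the tests were chosen with earlier results of these data known. Values are given for genes above 10 reads on average. Of the integrin and laminin genes 1, and of the adhesion list 1, is not reported here by name, though both are in the counts. From the adhesion and ligand lists, up to 4 genes with the largest rise and 4 with the largest fall past the threshold were named, and others are said to have been named after their values were seen. The labels do not say whether replicate numbers pair the cultures, and the main fit did not pair them.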

Additional observations from a re-analysis of the deposited data

How the results depend on the processing

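Over the 21 integrin and laminin genes with enough reads and NPNT, 220 of 278 results under other settings kept the direction and side of the threshold, 31 lost the call and 10 gained one. In 17 the sign turned, in 5 genes that passed in neither fit (ITGA6 in 8 fits, ITGA4 in 4, LAMA3 in 3, ITGAE and ITGAV in 1 each). The 278 include readings of the main fit at a log2 change of at least 0.5 or an adjusted p under 0.01. In these the direction could not turn. Nor could it where only the filter, the variance trend or the block differed. ITGB3 and NPNT had no main test, and their calls are counted as gained. The 1498 genes called in all became 505 with no filter, 3425 with the GC and length trend removed, 3325 with that and the replicate block, 2764 by voom, 314 when a log2 change of 0.5 or more in size was also asked for, and 719 at an adjusted p under 0.01. Leaving out 1 library gave 759 (without CsiRNA replicate 1) to 2083 (without NEAT1siRNA replicate 2). The cause of these shifts was not tested. The split of higher to lower calls, 535 to 963, was 1082 to 1109 after quantile normalization, 1158 to 954 after median centring, 920 to 1185 after rescaling without 4 short noncoding RNAs, and 1396 to 1368 by voom.

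The count of 6 lower integrin and laminin genes became 2 with no filter (ITGA5 of the 6, and ITGB3), 0 at a fold change of at least 0.5 and 3 at an adjusted p under 0.01. Leaving out 1 library gave 1 (without CsiRNA replicate 1, ITGA5) to 6, and 2 without NEAT1siRNA replicate 3 (ITGA5 and LAMB1). With GC and length removed 1 gene (LAMA3) rose, at an adjusted p just under 0.05, and with the replicate block as well it was at 0.0694 and none rose. The 8 adhesion complex calls became 3 with no filter, 16 with GC and length removed (11 lower and 5 higher), with or without the replicate block, 0 at a fold change of at least 0.5 and 3 at an adjusted p under 0.01, and 2 to 8 without 1 library. The 8 ligand and partner calls became 5 with no filter and 8 to 9 without 1 library.

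Same-numbered libraries had correlations of deviations of -0.0304, 0.2510 and -0.1070, and CsiRNA replicate 1 correlated best with NEAT1siRNA replicate 2 (0.0761). The largest correlation of all was 0.3993, between CsiRNA replicate 3 and NEAT1siRNA replicate 1. With so few libraries in each group, such correlations cannot decide whether the cultures were paired. The replicate block gave 1640 calls and 7 lower integrin and laminin genes (ITGA10 added). Depth limits the genes under 10 reads.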

Other observations

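NPNT (nephronectin, a ligand of the integrin that holds ITGA8) had a mean under 1 TPM and was not in the main test. It belongs to the list of integrin ligands and laminin partners. It was singled out after its values were seen. NPNT was 0.720, 0.556 and 0.550 TPM in the CsiRNA libraries and 1.16, 1.32 and 1.29 TPM in the NEAT1siRNA libraries, so every NEAT1siRNA library was above every CsiRNA library. On recovered reads its voom log2 fold change was 1.10 (SE 0.15, adjusted p = 5.54e-05), and with no filter on TPM the limma value was 0.49 (adjusted p = 0.0221). ITGA8 itself averaged under 10 reads.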
